A study of Mus musculus with 20 samples.

Results

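The regions described here are stretches of chromatin that carried the tagged histone variant H3.3-Flag in both wild-type (WT) and PML knock-out (KO) mouse embryonic fibroblasts and that lay in H3K9me3 chromatin of WT cells. They were chosen from called regions: WT H3.3-Flag regions on chromosomes 1 to 19 and X that overlapped a KO H3.3-Flag region by at least 1 bp and had 0.5 or more of their length in WT H3K9me3 regions. This rule found 1556 regions of 28212, or 7.49% of the 20787 shared regions and 5.52% of all WT regions. They covered 9.93 Mb, 3.81% of the 260.4 Mb of shared regions. The rest of the shared set, 19231 regions, and the 928 WT regions that met the H3K9me3 criterion without a KO call are given beside them.

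Both groups were fibroblasts of the C57BL/6 strain at passage 10 to 15, taken from WT mice or from mice with a null Pml gene. Cells for H3.3 libraries were nucleofected with an H3.3-Flag or H3.3-HA plasmid, so these maps show a histone supplied from outside. The labels mention siRNA in some transfections without saying in which samples, and do not say which cells the total H3 libraries came from. H3K9me3, H3K27me3 and PML libraries came from cells crosslinked without that step, and RNA from native cells. Each target had 1 library per genotype. RNA came in 2 table pairs, 1 pooled by the authors from 3 numbered replicates per genotype and 1 from a single unnumbered sample per genotype. No value therefore had a replicate, every comparison between genotypes is one of single libraries or pooled tables, and no test was made. The 95% intervals given with shares are Wilson intervals and cover counting error only.

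H3.3 is the form of histone H3 that is placed in chromatin outside DNA replication. The HIRA complex places it at active genes, whereas ATRX and DAXX place it at telomeres, pericentromeres and silent repeats that carry H3K9me3. PML bodies hold ATRX, DAXX and soluble H3.3. H3K9me3 in chromosome arms is laid down largely by SETDB1, which KRAB zinc finger proteins recruit through TRIM28, and the genes of that protein family are themselves clustered and often coated with H3K9me3.

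H3K9me3 over the set was in most cases complete. Of the 1556 regions, 1150 (73.9%) lay wholly in WT H3K9me3. At the threshold, 195 had from 0.5 to under 0.6 of their length covered, 118 of them exactly 0.5, and 99 shared regions just outside it had from 0.4 to under 0.5, with a highest value of 48.5%. Another 17507 shared regions held no WT H3K9me3 base. The H3K9me3 call around a region had a median length of 33 kb and a median signal, the authors' value per call, of 2.31. Around the WT-only regions, chosen by the same H3K9me3 criterion, the medians were 48 kb and 2.19. Over the plain list of 20730 WT H3K9me3 calls they were 13 kb and 3.83, but that list counts each call once and the values around regions count a long call once per region. A signal under 3 was carried by the surroundings of 921 regions (59.2%) and a signal under 1 by those of 376 (24.2%).

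Of the 6 promoter sequences shown here, 4 belong to zinc finger genes and were chosen as those with the most bases in the set among genes whose RefSeq promoter window lay wholly in the set and was placed at the outermost annotated start of the gene. Genes with more bases in the set whose window is placed at an inner start, such as Zfp52 and Zfp948, are not shown. The other two are gene starts of another kind, that of the imprinted receptor gene Igf2r and that of H3f3a, which encodes H3.3 itself. Each run gives the 200 bases before the start, 5′ to 3′ in the direction of the gene, from RefSeq sequence of GRCm38.p6, with every CG in capitals.
Zfp958 (chr8:4612970-4613169, plus strand): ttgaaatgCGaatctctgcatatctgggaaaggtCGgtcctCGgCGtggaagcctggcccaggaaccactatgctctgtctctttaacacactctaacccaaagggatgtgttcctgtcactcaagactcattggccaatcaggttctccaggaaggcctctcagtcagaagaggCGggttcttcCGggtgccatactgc
Zfp273 (chr13:67813616-67813815, plus strand): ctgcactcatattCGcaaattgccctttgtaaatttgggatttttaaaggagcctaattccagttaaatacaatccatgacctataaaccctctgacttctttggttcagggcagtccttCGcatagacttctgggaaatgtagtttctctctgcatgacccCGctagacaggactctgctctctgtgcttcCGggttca
Zfp281 (chr1:136624701-136624900, plus strand): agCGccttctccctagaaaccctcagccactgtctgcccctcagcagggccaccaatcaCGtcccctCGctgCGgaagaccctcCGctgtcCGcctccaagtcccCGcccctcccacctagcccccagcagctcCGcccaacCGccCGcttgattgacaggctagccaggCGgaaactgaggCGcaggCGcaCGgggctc
Zfp263 (chr16:3743899-3744098, plus strand): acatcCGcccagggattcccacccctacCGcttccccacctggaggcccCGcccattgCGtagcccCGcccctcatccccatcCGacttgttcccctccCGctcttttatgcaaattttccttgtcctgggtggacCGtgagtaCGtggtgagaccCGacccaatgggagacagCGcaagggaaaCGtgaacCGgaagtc
Igf2r (chr17:12769707-12769906, minus strand): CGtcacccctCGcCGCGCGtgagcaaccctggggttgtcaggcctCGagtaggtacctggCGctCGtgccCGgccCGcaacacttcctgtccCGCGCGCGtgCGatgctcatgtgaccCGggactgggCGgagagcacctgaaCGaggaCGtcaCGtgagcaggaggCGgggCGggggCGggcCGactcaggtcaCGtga
H3f3a (chr1:180813606-180813805, minus strand): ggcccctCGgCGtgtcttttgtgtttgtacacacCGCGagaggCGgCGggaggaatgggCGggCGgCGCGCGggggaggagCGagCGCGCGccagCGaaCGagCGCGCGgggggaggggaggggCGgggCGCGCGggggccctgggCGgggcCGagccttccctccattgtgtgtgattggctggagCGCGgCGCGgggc
The zinc finger starts held from 4 to 14 CG in these 200 bases, and Igf2r and H3f3a held 25 and 30. Over the 300 bases from 250 before to 50 after a start, 180 windows of 160 genes lay wholly in the set, with a median of 16.5 CG, against 13 over all 21045 windows and 22 over the 7372 windows in other shared regions. The motif CCGGAAG, on either strand, was in 14 of 41 zinc finger windows in the set (34.1%), in 93 of the 428 zinc finger windows overall (21.7%), in 20.0% of all windows in the set and in 11.7% of all windows. CCAAT on either strand was in 51.2% of the zinc finger windows in the set, 46.7% of all zinc finger windows and 38.5% of all windows. GGGCGG on either strand was in 41.5%, 43.0% and 46.7% of the same 3 groups. These matches describe letters and show no binding.

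The regions were short islands. Their median length was 3 kb (quartiles 2 and 6.25 kb, longest 198 kb), against 5 kb in the other shared regions and 2 kb in the WT-only regions in H3K9me3. Islands of 1 kb numbered 194 and those of 2 to 3 kb 655, while 41 regions longer than 30 kb held 24.4% of the bases. H3.3-Flag signal, which chose the calls, is given as a description. Over all lengths its median was a little higher than in the other shared regions. The WT median was 39.8 against 36.6 in the other shared regions, and the KO median 16.3 against 13.7. In both sets the KO value was lower than the WT value, by a median log2 ratio of -1.21 in the regions in H3K9me3 and -1.33 in the others. The 2 libraries had no common scale, so the ratio is a description. Short regions had the higher signals, with a WT median of 62 at 1 kb and 23.8 at 11 to 30 kb. At matched length the WT median of the set was the lower one up to 30 kb. The other shared regions had 65 at 1 kb and 27.1 at 11 to 30 kb. At 2 to 3 kb the set had 44.9 against 47.0, and at 4 to 10 kb 30 against 33.6. Above 30 kb the set was higher, at 29.7 against 27.7. KO medians of the set were higher up to 10 kb, with 27 against 22.5 at 1 kb. Above that they were lower, with 10.4 against 11.3 at 11 to 30 kb. KO H3.3-Flag calls covered 0.5 or more of the length in 92.3% of the set and 92.2% of the others. The plot of length and signal shows that length separated the sets more than signal did.

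**Figure D1:**
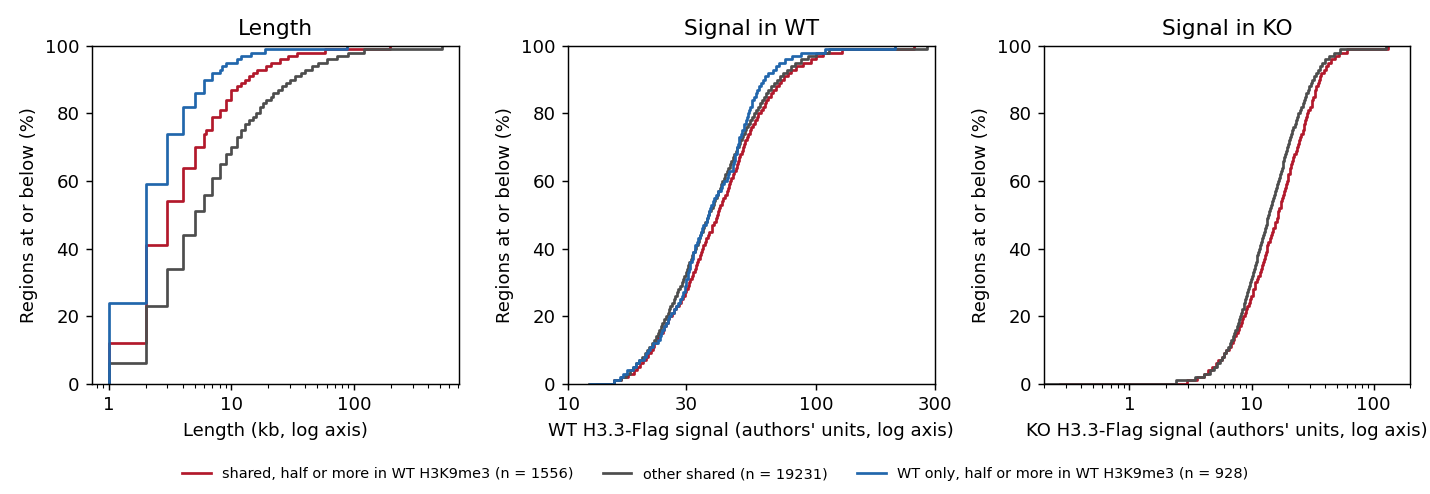
Cumulative share of regions (vertical axis, %) by length in kb and by the authors' H3.3-Flag signal in WT and KO (log axes) for the 1556 shared regions in H3K9me3, the 19231 other shared regions and the 928 WT-only regions in H3K9me3. The length curves stand apart, with medians of 3, 5 and 2 kb, and the signal curves lie close together.

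The longest regions lay over gene bodies. Of the 41 regions over 30 kb, 39 touched a protein-coding gene. The longest, chr10:68087001-68285000 (mm10), spanned the whole of Arid5b, a DNA-binding cofactor, over 198 kb with a WT signal of 37.8 and a KO signal of 14.9. Of its length 50.0% lay in WT H3K9me3 and 24.2% in KO H3K9me3. The next were 147 kb over Ddr2, a collagen receptor, 131 kb over Fat1 and 126 kb over Fat4, both giant cadherins. Their H3K9me3 share was 52.4%, 51.9% and 54.0% in WT and 11.6%, 6.87% and 9.52% in KO. These 4 therefore stood at the threshold of the rule. A stretch of 106 kb, chr17:12712001-12818000, covered the start and most of Igf2r, the imprinted receptor for Igf2 and mannose 6-phosphate, with 52.8% in WT and 57.5% in KO H3K9me3.

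The next longest regions ranged more widely in H3K9me3. The 72 kb over Resf1 (chr6:149277001-149349000), a partner of the methyltransferase SETDB1, was 100% in H3K9me3 in both genotypes, with a signal of 5.60 in WT and 14.5 in KO. Its H3.3-Flag signal was 46.5 in WT and 15.8 in KO. The 69 kb over Atf7ip (chr6:136491001-136560000), which encodes a further SETDB1 partner, was 65.2% in WT and 56.5% in KO H3K9me3. The 72 kb over Pawr, a regulator of cell death, was 84.7% and 76.4%. The 75 kb over Zc3hav1 and Zc3hav1l, antiviral RNA-binding proteins, was 53.3% and 50.7%. A 69 kb region over Zfp52, Zfp948 and the end of Zfp53 was 62.3% in WT and 18.8% in KO. Of these 5, the Resf1 region held no WT base outside H3K9me3, and the Zfp52 region had the largest drop in H3K9me3 share between the libraries.

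The highest signals came from regions of 1 to 4 kb. Of the 20 regions with the highest WT signal, 10 in each chromosome set, 7 touched a protein-coding gene, 13 had 0.5 or more of their length in KO H3K9me3 and the other 7 no KO H3K9me3 base. On chromosomes 10 to 19, where signals may be scaled differently, the highest was 1 kb at chr14:43085001-43086000, over the predicted genes Gm8104 and Gm8094, with 248.5 in WT and 93.8 in KO. On chromosomes 1 to 9 and X the highest was 2 kb at chr6:3200001-3202000, in no gene, with 198 and 55.5. Named genes under such islands were Spata17, Eif2ak4, a kinase that senses amino acid shortage, Gpam, an enzyme of glycerolipid synthesis, BC024063, Htr4, a serotonin receptor, and Senp7, a SUMO protease. The signal of the Gpam island was 139.8 in WT and 11.01 in KO, and that of the Senp7 island 108.8 and 11.7. Among the 10 highest KO signals was a 15 kb region, chr9:123923001-123938000, with 130.6 in KO and 54.8 in WT. This region had more signal in KO than in WT, lay 93.3% in WT and 86.7% in KO H3K9me3 and touched no protein-coding gene.

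H3K9me3 was also called in KO over many of the regions, and absent from the KO calls over nearly as many. KO H3K9me3 covered 0.5 or more of the length in 756 of 1556 regions (48.6%, 95% interval 46.1% to 51.1%), against 13.6% of all WT H3.3-Flag regions, 9.34% of the other shared regions and 53.1% of the WT-only regions in H3K9me3. These 756 are called regions that kept H3K9me3. In KO, 662 regions (42.5%) were wholly covered and 738 (47.4%) held no KO H3K9me3 base. Cover of some bases but under 0.5 of the length was rare in every set. It was seen in 3.98% of the set, 4.06% of the other shared and 1.08% of the WT-only regions. KO H3K9me3 calls had a median length of 24 kb, against 3 kb for the regions. By bases, 51.9% of the WT H3K9me3 inside the set was also called in KO, against 52.4% of WT H3K9me3 elsewhere. Over the 818 regions touched by KO H3K9me3, its signal had a median of 7.93. By the WT H3K9me3 signal around a region, the share was 50.0% at a WT signal under 1, 49.0% from 1 to under 3, 42.2% from 3 to under 6 and 52.5% at 6 or more. Regions with and without 0.5 or more in KO H3K9me3 had WT H3.3-Flag medians of 39.9 and 39.8 and KO medians of 17.2 and 15.4, so their signals lay close together.

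**Figure D2:**
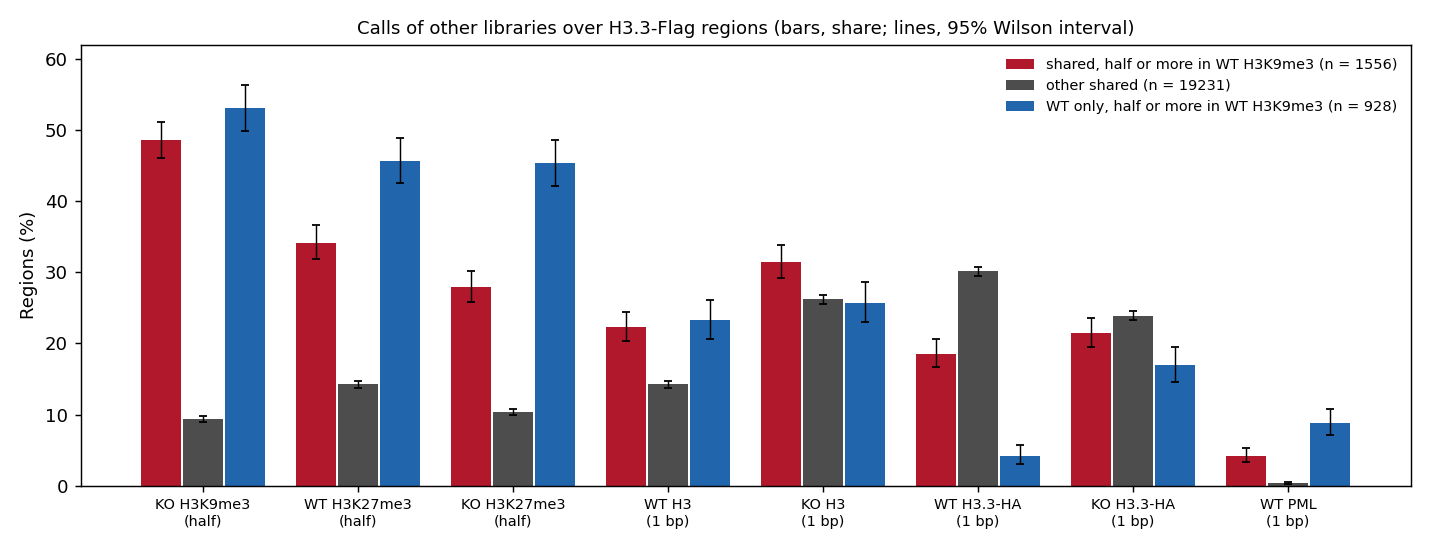
Share of regions (bars, %) that had 0.5 or more of their length in, or were touched by 1 bp of, regions of each other library, with 95% Wilson intervals, for the 1556 shared regions in H3K9me3, the 19231 other shared and the 928 WT-only regions in H3K9me3. The shared regions in H3K9me3 stand between the other 2 sets for every library shown except KO H3, where they stand highest.

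Chromosomes differed widely in this share. It was lowest on chromosome 12 (4 of 33 regions, 12.1%), chromosome 1 (30 of 151, 19.9%), chromosome 18 (14 of 58, 24.1%) and chromosome 2 (31 of 115, 26.96%). It was highest on chromosome 11 (45 of 64, 70.3%), chromosome 17 (52 of 72, 72.2%) and chromosome 5 (127 of 132, 96.2%). On chromosome 5 KO H3K9me3 regions covered 115.2 Mb against 64.3 Mb in WT, and 70.0% of the other shared regions there lay in them. The wider KO calls there were not limited to H3K9me3. Total H3 calls on chromosome 5 covered 78.88 Mb in KO against 51.26 Mb in WT. H3K27me3 calls there covered 84.2 Mb against 58.1 Mb. The part of these wider calls in the 96.2% was not tested. Without chromosome 5 the share was 44.2% (41.6% to 46.8%) in the set, 5.76% in the other shared regions and 49.9% in the WT-only regions. The plot by chromosome shows the set above the other shared regions on each of the 20 chromosomes. The rule chose the set by WT H3K9me3, and 17507 of the other shared regions held no such base. The 2 sets therefore differed in this mark from the start. By bases, the set and the rest of WT H3K9me3 were close, at 51.9% and 52.4%.

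**Figure D3:**
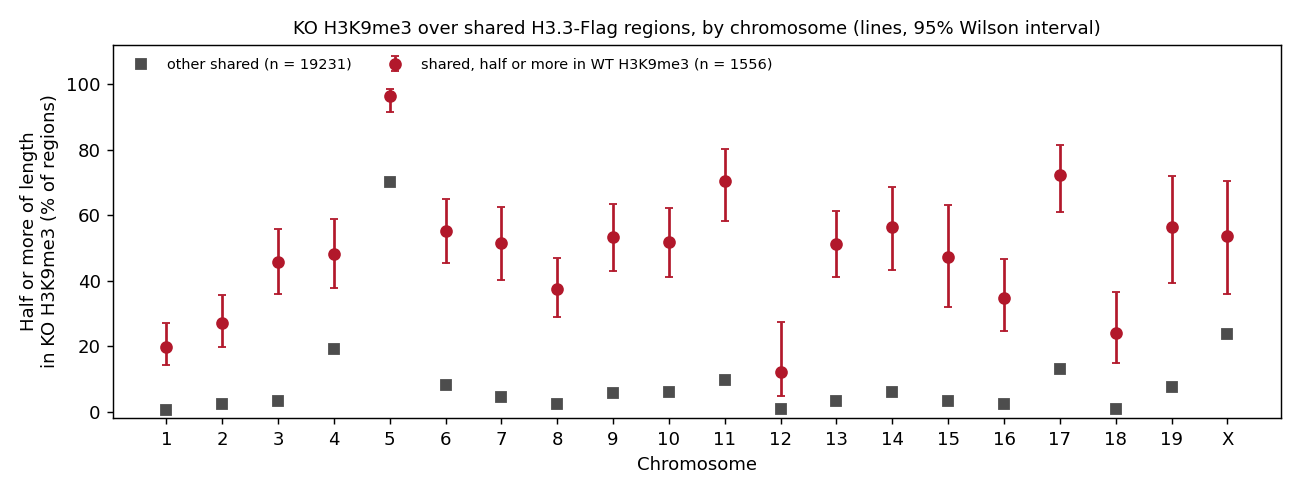
Share of shared H3.3-Flag regions with 0.5 or more of their length in KO H3K9me3 (vertical axis, %) on each chromosome, for regions in WT H3K9me3 (circles, with 95% Wilson intervals) and other shared regions (squares). The circles run from 12.1% on chromosome 12 to 96.2% on chromosome 5. Circles and squares were set apart by WT H3K9me3 in the rule.

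Calls of total H3, which mark where chromatin of any modification was enriched, moved with this result. WT H3 regions touched 347 of the 1556 (22.3%, 20.3% to 24.4%), against 14.7% of all WT H3.3-Flag regions and 14.3% of the other shared. KO H3 regions touched 490 (31.5%, 29.2% to 33.8%), against 25.1% of all and 26.2% of the other shared. Of the WT-only regions in H3K9me3, WT H3 regions touched 23.3% and KO H3 regions 25.8%. Among the 542 regions with an H3 call in either genotype, 72.5% (68.6% to 76.1%) kept H3K9me3 in KO, and among the 1014 without one 35.8% (32.9% to 38.8%). The other shared regions had 23.5% and 3.89% in the same classes, and the WT-only regions in H3K9me3 had 81.5% and 40.4%. The split was therefore not particular to the set. Outside H3 calls and chromosome 5 the shares were 34.1% in the set, 3.05% in the other shared and 39.1% in the WT-only regions. H3 calls were long, with a median of 490 kb in WT, and their part in the H3K9me3 calls was not tested.

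H3K27me3, the Polycomb mark, lay over the set more often than over other shared regions. It lay over the WT-only regions in H3K9me3 more often still, at 45.7% in WT and 45.4% in KO. WT H3K27me3 covered 0.5 or more of the length in 532 regions (34.2%, 31.9% to 36.6%), against 19.3% of all WT H3.3-Flag regions and 14.3% of the other shared. In KO it was 435 (27.96%, 25.8% to 30.2%), against 15.5% of all and 10.3% of the other shared. The mark was called in both genotypes over 348 regions, in WT alone over 184, in KO alone over 87 and in neither over 937. It went together with H3K9me3 in KO: among the 756 regions that kept H3K9me3, 44.97% had WT and 40.2% KO H3K27me3, and among the other 800 the shares were 24.0% and 16.4%. The WT-only regions in H3K9me3 had the same order, with 58.4% and 62.7% where H3K9me3 was kept and 31.3% and 25.7% where not. So did the other shared regions, with 35.5% and 32.5% where KO H3K9me3 covered 0.5 or more and 12.1% and 8.05% elsewhere. In the set, WT H3K27me3 also went with H3 calls, at 50.6% with a call in either genotype and 25.4% without. Of the 800 in the set, 35 (2.25% of the set) had H3K27me3 in KO and not in WT, close to the 2.01% of the other shared and 3.77% of the WT-only regions in that class. Both marks were called in both genotypes over 252 regions (16.2%). H3K27me3 was more frequent where the WT H3K9me3 signal was low, at 43.1% under 1 and 22.0% at 6 or more, and so were WT H3 calls, at 29.5% and 13.7%. On X, 27 of 28 regions lay in WT and 28 of 28 in KO H3K27me3, whose calls covered 77.8% and 99.0% of X.

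The second tagged H3.3 library, with HA, touched the set less often than the other shared regions in WT. WT HA regions touched 289 (18.6%, 16.7% to 20.6%), against 22.7% of all WT H3.3-Flag regions and 30.1% of the other shared, and 4.2% of the WT-only regions in H3K9me3. At matched length the gap was smaller in the short classes. At 1 kb the shares were 4.12% and 4.94%, at 2 to 3 kb 13.6% and 13.9%, at 4 to 10 kb 20.3% and 25.5%, at 11 to 30 kb 39.6% and 47.6% and above 30 kb 63.4% and 76.3%. KO HA regions, which were broad and covered 389.8 Mb against 73.5 Mb in WT, touched 335 (21.5%, 19.6% to 23.6%), against 20.8% of all and 23.9% of the other shared. KO HA regions with a signal of at least 1 touched 8.74% of the set, and those of at least 3 touched 2.06%. WT HA regions touched 18.6% and 18.3% at the same limits. These limits were not applied to the other shared regions, so the drop is not a trait shown for the set. Both HA libraries touched 97 regions (6.23%) and neither 1029 (66.1%), against 13.2% and 59.1% of the other shared and 1.51% and 80.4% of the WT-only regions.

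PML regions held few of these islands, though a larger share than of other shared regions. WT PML regions touched 65 (4.18%, 3.29% to 5.29%), against 0.992% of all WT H3.3-Flag regions, 0.395% of the other shared and 8.84% of the WT-only regions in H3K9me3. Of the 141 shared H3.3-Flag regions in PML regions, these 65 were 46.1%. They had a median length of 2 kb, a median WT signal of 39.5 and a KO signal of 22.5. KO H3K9me3 covered 0.5 or more of 39 of the 65, WT H3K27me3 of 32 and KO H3K27me3 of 40. Over the whole set these shares were 48.6%, 34.2% and 27.96%. WT H3 calls touched 36 of the 65 and KO H3 calls 25, against 22.3% and 31.5% of the whole set. H3 calls were thus fewer in KO than in WT over the 65, and more frequent in KO over the set. The PML calls themselves were long, with a median of 810 kb. The 65 regions touched 28 protein-coding genes, of which those named here were chosen after their values were seen. Caln1, a neuronal calcium-binding protein, and Asic2, a proton-gated channel, were listed at 0 in all RNA tables. The highest RNA was that of Atp6v1h, a subunit of the vacuolar proton pump, at 21.7 in WT and 28.6 in KO FPKM in the numbered pair and 40.7 and 50.1 in the unnumbered pair.

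Genes lay under the set less often than under other shared regions, except for zinc finger genes. A protein-coding gene was touched by 788 regions (50.6%, 48.2% to 53.1%), against 64.7% of the other shared, and the start of one by 149 (9.58%) against 24.1%. No annotated protein-coding gene, lncRNA or pseudogene was touched by 570 (36.6%) against 25.9%. In the WT-only regions in H3K9me3 the same shares were 39.7%, 6.03% and 49.4%. Regions of the set were shorter than the other shared regions, and these shares were not compared at matched length. In all, 731 of 21631 protein-coding genes were touched (3.38%), and 78 of them had 0.5 or more of their body in the set. Genes of the zinc finger list, chosen by symbols such as Zfp or Zscan, were touched in 63 of 426 cases (14.8%), by 58 regions (3.73% of the set against 1.07% of the other shared and 3.23% of the WT-only regions in H3K9me3). With 0.5 or more of the gene body required, 8 zinc finger genes were in the set. The other shared regions touched 39.0% of zinc finger genes and 47.9% of all genes. Of the 1110 olfactory receptor genes, 353 vomeronasal receptor genes, 64 replication histone genes, 57 clustered protocadherin genes and 39 Hox genes, 0 were touched. The other shared regions touched 1.26%, 0.567%, 92.2%, 36.8% and 20.5% of these families, in the same order. With 3.38% of all genes touched, a count of 0 in the shorter lists says little. Of the 42 imprinted genes annotated, Igf2r, Airn and Inpp5f were touched (7.14%), and of 30 genes of heterochromatin and H3.3 placement, H3f3a and Morc2a (6.67%). The other shared regions touched 38.1% and 76.7% of these 2 lists. None of the 10 fibroblast, 7 macrophage or 4 epithelial marker genes was touched. The other shared regions touched 90%, 28.6% and 25% of those lists.

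The touched zinc finger genes were spread over clusters on several chromosomes. Chromosome 17 had 13 of its 47 listed genes touched, chromosome 7 had 11 of 104, chromosome 13 had 8 of 42 and chromosomes 8 and 18 had 6 each. The 1 Mb from chr9:20000001 held 5 regions, and 4 of the 5 zinc finger genes there were touched: Zfp266, Zfp426, Zfp560 and Zfp846. A region of 53 kb, chr17:22817001-22870000, held all of Zfp945 and was 90.6% in WT and 75.5% in KO H3K9me3. A region of 33 kb, chr7:30120001-30153000, held all of Zfp382 and was 100% in H3K9me3 in both genotypes. Its H3K9me3 signal was 38.0 in WT, where the highest of the set was 40.9, and 43.2 in KO, beside an H3.3-Flag signal of 16.4 and 8.20. A region of 27 kb, chr8:4609001-4636000, held all of Zfp958 and was 77.8% and 70.4%. A region of 17 kb, chr1:136623001-136640000, held all of Zfp281, a zinc finger factor of stem cells outside the KRAB family, and was 52.9% in WT and 0% in KO.

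Zinc finger regions differed from the rest of the set in their marks. The 58 regions lay in H3K9me3 calls of a median WT signal of 10.2, with 49 at 3 or more (84.5%), whereas the other 1498 had a median of 2.23, with 39.1% at 3 or more. WT H3K27me3 covered 0.5 or more of 4 of the 58 (6.90%) and KO H3K27me3 of 5 (8.62%), against 35.2% and 28.7% of the other 1498. KO H3K9me3 covered 0.5 or more of 33 (56.9%) against 48.3%. Without chromosome 5 this was 28 of 53 (52.8%). PML regions touched 1 of the 58, at Zscan20.

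H3.3 lay at the starts of these genes. Of the 53 touched zinc finger genes with a known strand, 37 (69.8%) had an annotated start inside the set and 38 (71.7%) were touched in the first of 4 equal parts, against 16 (30.2%) in the last. Of the other 525 touched genes with a strand, 125 (23.8%) had a start inside, 40.2% were touched in the first part and 39.6% in the last. In the other shared regions the corresponding shares of genes with a start inside were 83.2% for zinc finger and 73.8% for other genes. The plot of gene bodies, over genes of at least 10 kb, gives a mean coverage of 46.7% in the first of 10 equal parts and 22.3% in the second for 48 zinc finger genes, and from 11.02% to 14.6% in every part for 490 other genes. The bodies of Zfp52, Zfp948, Zfp945, Zfp958 and Zfp382 were covered from end to end by the WT regions. KO H3.3-Flag calls covered 11.1% of Zfp52, 55.3% of Zfp948, 86.7% of Zfp958 and 100% of Zfp945 and Zfp382.

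**Figure D4:**
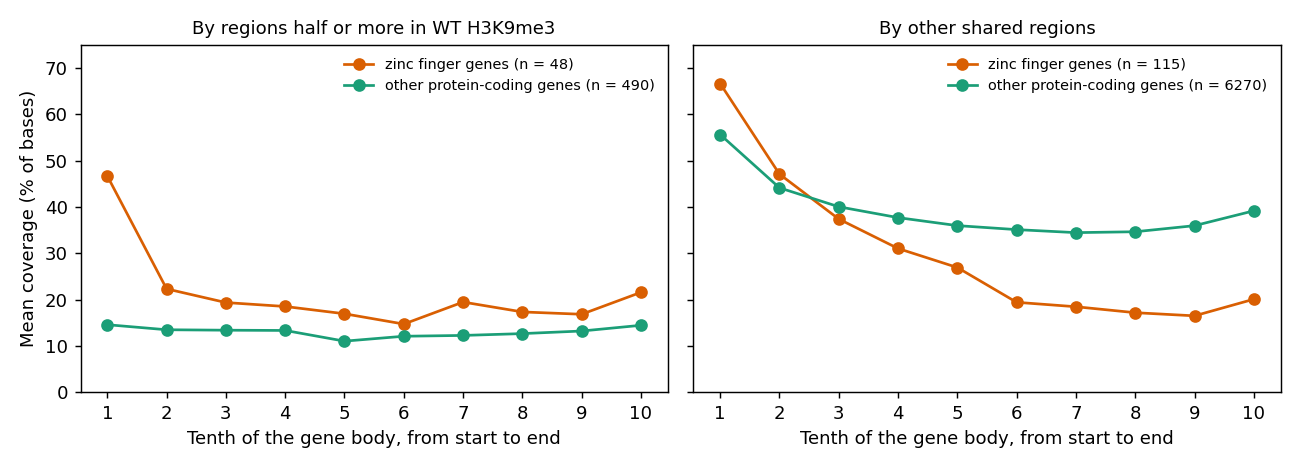
Mean share of bases covered (vertical axis, %) in each of 10 equal parts of the gene body from start to end, by regions in WT H3K9me3 (left) and by other shared regions (right), for touched zinc finger and other protein-coding genes of at least 10 kb. Over zinc finger genes the coverage by regions in H3K9me3 is 46.7% in the first part and between 14.7% and 22.3% in the others.

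Both touched genes of H3.3 placement and silencing, and the imprinted genes, differed in how much of them was covered. A 19 kb region, chr1:180796001-180815000, held all of H3f3a, with an H3.3-Flag signal of 34.5 in WT and 13 in KO. It was 57.9% in WT H3K9me3 at a signal of 16.5 and had no KO H3K9me3 base. Its RNA was 203.2 in WT and 264.2 in KO FPKM in the numbered pair and 311.4 and 270.98 in the unnumbered pair. Morc2a encodes an ATPase that works with the HUSH silencing complex, and 20.1% of its body was covered. A 17 kb region that ended just inside its start was 82.4% in H3K9me3 in both genotypes. An 8 kb region over its end was 100% in WT and 37.5% in KO H3K9me3. Igf2r was touched by 2 regions, and its RNA went from 11.5 to 24.2 FPKM in the numbered pair and from 136.0 to 108.7 in the unnumbered pair. Inpp5f was touched over 3 kb, with a WT signal of 85.7 and a KO signal of 12.8.

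Some stretches held several islands. The 1 Mb from chr10:70000001 held 11 regions, 7 of them with 0.5 or more in KO H3K9me3. Of these 11, 3 touched Bicc1 and 2 Fam13c. The 1 Mb from chr1:90000001 held 8 regions with 82 kb in all, 2 of which kept H3K9me3. Col6a3 was touched by 2 of the 8, over 18 kb. The 1 Mb from chr9:117000001 held 7 regions, all 43 kb of them inside Rbms3, an RNA-binding protein.

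RNA of the touched genes was present in most cases. In WT, an FPKM of 1 or more was reached by 70.0% of touched genes in the numbered and 78.4% in the unnumbered pair, against 46.1% and 50.7% of all measured genes and 77.4% and 81.7% of genes touched by other shared regions alone. The touched zinc finger genes had low but present RNA, with a median WT FPKM of 2.35 and 4.25. Of the 60 in the tables, 78.3% in the numbered and 98.3% in the unnumbered pair reached 1 FPKM in WT.

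The share of touched genes higher in KO was near the background in both pairs, and the share lower in KO was below it in the numbered pair. Differences are KO minus WT of log2(FPKM + 1) in genes with at least 1 FPKM in either genotype, which understates changes of low genes. In the numbered pair 34 of 518 touched genes were 2-fold or more higher in KO (6.56%, background 6.47%) and 53 were lower (10.2%, background 15.7%), with a median of 0.15 against 0.06 over all genes. Among genes with 0.5 or more of their body in the set, 13 of 67 were lower in that pair (19.4%, above the background) and 5 higher (7.46%), with a median of -0.15. In the unnumbered pair 6 of 551 were higher (1.09%, background 1.74%) and 22 lower (3.99%, background 3.82%), with medians of -0.0017 and 0.01. Genes touched only by regions that kept H3K9me3 had medians of 0.17 and -0.03, and genes touched only by regions that did not had 0.12 and 0.01. Among touched zinc finger genes, 3 of 53 were 2-fold higher in the numbered pair, Zfp618, Zfp37 and Zfp52, and 2 were lower, Zfp579 and Zfp521. In the unnumbered pair it was 0 and 0 of 60. Their medians were 0.36 and 0.03, against 0.14 and -0.04 for the zinc finger genes not touched.

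**Figure D5:**
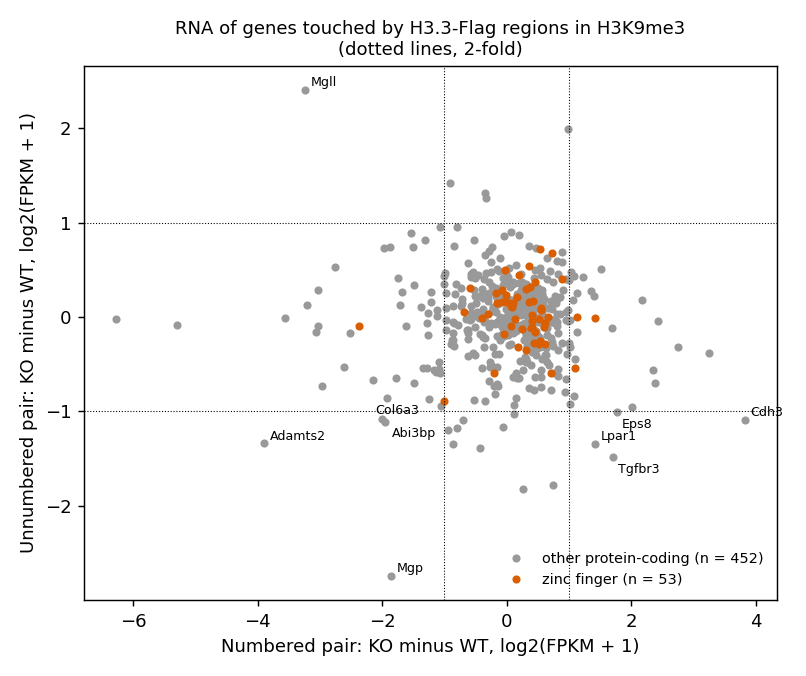
KO minus WT difference of log2(FPKM + 1) in the numbered pair (horizontal axis) and the unnumbered pair (vertical axis) for the 505 touched genes measured in both, 53 of them zinc finger genes, with dotted lines at 2-fold. Named points passed 2-fold in both pairs, 4 in the same and 5 in opposite directions.

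Of the 505 genes measured in both pairs, 4 were 2-fold or more lower in KO in both (0.792%), against a background of 0.791% of the 10624 genes measured in both, and 5 were apart in opposite directions (0.990%, background 1.03%). In the higher direction it was 0 (background 0.254%). The shares of touched genes lay close to those of all genes. Mgp, the matrix Gla protein that keeps tissue from calcifying, was 3244 in WT and 896.5 in KO FPKM in the numbered pair and 2188 and 326.5 in the unnumbered pair. Its region of 14 kb was 50.0% in WT H3K9me3, with no KO H3K9me3 base, and its H3.3-Flag signal was 61.8 in WT and 21.1 in KO. Col6a3, a chain of collagen VI, was 119.7 and 29.1 and then 88.5 and 41.3, and its regions of 13 and 5 kb had no KO H3K9me3 base. Adamts2, which trims procollagen, was 48.1 and 2.30 and then 28.2 and 10.6. Its 2 kb region was 100% in H3K9me3 in both genotypes. Abi3bp, a matrix-bound protein, was 3.45 and 0.14 and then 55.7 and 25.1. Its 3 regions of 1 to 3 kb had a WT H3K9me3 signal of 0.25 and no KO H3K9me3 base. KO values lay below WT values for these 4 in both pairs, and the WT tables differed widely for Abi3bp. The 10 listed fibroblast markers, summed, were 10382 FPKM in WT against 4661 in KO for the numbered pair, and 10540 against 9264 for the unnumbered one, and none was listed at 0. Some were very low in the numbered pair. Thy1 had 0.14 FPKM in WT and 0.10 in KO there, against 209.8 and 120.3 in the unnumbered pair. Lum had 0.44 in numbered KO. Single markers did not all follow the sum: Col3a1 went from 204 FPKM in WT to 285 in KO for the numbered pair, and Pdgfrb, Vim, Fn1 and S100a4 were higher in KO in the unnumbered pair. Their part in these differences was not tested.

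Several of the largest differences were not seen in the other pair. In the numbered pair the lowest were Scand1, a SCAN domain protein, from 645.3 to 7.31 FPKM, Il3ra, an interleukin receptor chain, from 180.1 to 3.62, Adamts2, given above, and Prrx2, a mesenchymal homeobox factor, from 465.4 to 38.6. In the unnumbered pair Scand1, Il3ra and Prrx2 were 40.5 and 39.9, 10.5 and 9.84, and 82.2 and 81.4. The highest in the numbered pair were Cdh3, P-cadherin, from 0.18 to 15.9 and in the unnumbered pair from 36.2 to 16.5, Rtp4, an interferon-induced chaperone, from 0.53 to 16.9, and Medag, from 2.24 to 30.0. H2-Q4, a class I histocompatibility gene in a 64 kb region wholly in KO H3K9me3, went from 0.51 to 9.11, and from 5.05 to 3.85 in the unnumbered pair. In the unnumbered pair the lowest were Alox5ap, a leukotriene synthesis protein, from 7.61 to 0.18, Mgp, given above, Fcgr3, an antibody receptor of myeloid cells, from 4.37 to 0.31, and Igf1, insulin-like growth factor 1, from 30.7 to 7.96. The 7 macrophage markers, summed, were 52.8 in WT and 2.39 in KO in that pair, none at 0 in WT and 2 at 0 in KO, and 1.06 and 0.943 in the numbered pair, with 5 and 4 at 0. Their part in the values of Alox5ap and Fcgr3 was not tested, and fewer cells of a type cannot be told apart from less RNA per cell in bulk samples. The highest in the unnumbered pair were Mgll, an enzyme that degrades monoacylglycerol, from 4.58 to 28.5 and in the numbered pair from 15.4 to 0.743, Cd24a, a cell surface glycoprotein, from 18.2 to 75.2, and Map2, a neuronal microtubule protein, from 8.70 to 24.9.

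Facts of the libraries bear on these values. KO PML calls numbered 13 outside Y against 484 in WT. Pml RNA had 15.0 FPKM in WT against 10.2 in KO for the numbered pair, and 7.62 against 4.22 for the unnumbered one. Xist, expressed from an inactive X, had 19.5 FPKM in WT against 0.052 in KO for the numbered pair and 5.89 against 8.25 for the other, so genotype and sex of the cultures cannot be told apart in the numbered pair. Depth is unknown for every library, since no read totals were used.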

How the data were processed

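Chromatin immunoprecipitation was measured in 12 libraries, 1 per target and genotype, and RNA in 8 samples. Per the submitters' processing notes, the build was mm10 and the tools included TopHat2 2.0.8b and Bowtie 1.0.0, with Cuffdiff and Cufflinks both at 2.2.1. Which region caller was used is not given in the sources used here. For each library the authors deposited called regions with a signal per region whose scale is not stated. Signal times the number of 1 kb bins was nearly always whole on chromosomes 1 to 9 and X but mostly not on 10 to 19, so signals of these sets may be scaled differently. The authors also deposited a score per region, which was not used for values here. FPKM tables were deposited as made by the authors, and the 3 numbered replicates of a genotype were pooled into 1 table. Of 22611 FPKM names, 22487 (99.5%) matched RefSeq gene names of GRCm38.p6.

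Regions were intersected by bases in Python 3.11.15 with numpy 2.4.6 and pandas 2.3.3, and plotted with matplotlib 3.10.9. A region was touched by 1 bp, or covered at 0.5 or more of its length. RNA was compared as log2(FPKM + 1) in genes of at least 1 FPKM in either genotype, and a 2-fold difference was counted. Shares carry Wilson intervals of 95%, which treat regions as independent. The interval code was tested on simulated regions. No test was made, since no comparison had replicates, and the labels do not say how many mice or cultures the samples came from. Columns of other samples numbered 0.

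Genes named were those touched by the longest regions and by the regions of highest signal, zinc finger genes with the most bases in the set, touched genes of fixed lists (imprinted genes, heterochromatin and H3.3 placement, gene families, cell markers), the genes with the largest RNA differences in each pair, and genes 2-fold apart in the same direction in both. Members and lists were chosen with earlier results of these data known. Alternatives were other overlap, coverage and signal limits, chromosome sets, pseudocounts and FPKM minimums. Genome sequence of whole regions was not used here.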

Additional observations from a re-analysis of the deposited data

Results flagged for a closer look

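Of the touched genes, 5 were at least 2-fold apart between genotypes in opposite directions in the 2 RNA table pairs, as KO minus WT of log2(FPKM + 1). Whether the pairs differed was not tested. Cdh3, P-cadherin, was 3.8311 in the numbered and -1.0895 in the unnumbered pair. Eps8, an actin regulator, was 1.764 and -1.002. Lpar1, a lysophosphatidic acid receptor, was 1.4239 and -1.3433. Tgfbr3, a co-receptor for TGF-beta, was 1.7004 and -1.4808. Mgll, which degrades monoacylglycerol, went the other way, at -3.2353 and 2.4026.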

How the results depend on the processing

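No paired analysis was possible because the numbered RNA replicates were pooled into 1 table per genotype, and no replicate could be left out for the same reason. Of 168 alternatives over 20 results, 115 moved the value by less than its limit and 53 by more, and the causes were not tested. The limits are not given here, so these counts do not show how stable the results were. For medians of signal and of RNA difference, no alternative counted as past its limit, even where the sign changed. The median RNA difference of touched genes in the numbered pair was 0.149 in the main setting. With 0.5 of the gene body required it was -0.152. The number of regions was 630 with WT H3K9me3 of signal at least 3 and 592 on chromosomes 10 to 19. The share with 0.5 or more in KO H3K9me3 was 52.6% for 1 bp, 35.8% without regions in an H3 call, and 40.7%, 52.4% and 53.1% when 0.25, 0.75 or all of the length had to lie in WT H3K9me3. Without chromosome 5, chosen after seeing the data, it was 44.2%. WT H3K27me3 was 38.5% for 1 bp, 25.4% without H3 calls, and 28.6%, 37.6% and 38.6% at the same 3 lengths. KO H3K27me3 was 31.9%, 21.7%, then 22.7%, 31.5% and 32.9%, and 23.1% at signal of at least 3, 21.6% on chromosomes 10 to 19 and 25.6% without chromosome 5. WT HA was 13.5% at 0.5 of the length, and 24.6%, 15.7% and 15.0% at the 3 lengths. KO HA was 8.74% and 2.06% at signals of at least 1 and 3, and 27.5% on chromosomes 10 to 19. WT H3 was 20.3% at 0.25, 25.04% at the whole length and 19.8% without chromosome 5, and KO H3 was 27.5% without it. PML was 2.87% on chromosomes 10 to 19 and 3.24% at 0.25. With 0.5 of the gene body required, 8 zinc finger genes were counted, and genes higher and lower numbered 5 and 13 of 67 in the numbered pair (7.46% and 19.4%) and 1 and 1 of 69 in the unnumbered pair. In the numbered pair, higher genes were 53 of 879, 21 of 339 and 16 of 294 at the 3 lengths, 11 of 205 on chromosomes 10 to 19 and 56 of 518 at a pseudocount of 0.1. Lower genes there were 94 at 0.25, 33 at the whole length and 21 on chromosomes 10 to 19. These counts move with the number of genes tested, except at the pseudocount. In the unnumbered pair, higher genes were 10 of 925 at 0.25, 1 of 220 on chromosomes 10 to 19 and 11 of 551 at a pseudocount of 0.1, and lower genes were 14 of 317 at the whole length, 8 of 220 on chromosomes 10 to 19 and 36 of 551 at 0.1. The planned G+C, repeat and zinc finger linker shares were not run. Depth limits are unknown.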
